A study of Caenorhabditis elegans with 2 samples.

Results

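The 25 members of the hlh family were taken from the Ensembl annotation of the Caenorhabditis elegans assembly WBcel235 as all protein-coding genes whose symbol starts with hlh- and a digit, out of 19973 coding genes. Their loci were searched for chromatin sites of SNU-23, a zinc finger protein named for its place in the U4/U6.U5 tri-snRNP of the spliceosome. Binding was profiled by chromatin immunoprecipitation and sequencing (ChIP-seq), deposited as lists of peaks, in 1 group of 2 biological replicates of whole hermaphrodite L1 larvae. The worms were strain OP528, in which the fosmid transgene wgIs528 adds snu-23 tagged with TY1, EGFP and 3xFLAG beside an unc-119(+) marker to the unc-119(tm4063) mutant background. They were starved after bleaching and taken 6 hours after synchronisation, and an antibody to GFP was used. The authors called peaks against a control alignment; no untagged strain was analysed here. The tagged copy comes from a transgene, and the labels describe no change to the endogenous snu-23 gene. Whole animals mix all tissues, so few cells with a site and weak binding in many cells cannot be told apart. With 1 group there is no contrast of conditions, so all values below are descriptions, and no p-value is given. No file gives read numbers, so the depth of either replicate is unknown.

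Basic helix-loop-helix (bHLH) proteins bind DNA as dimers at the E-box, a 6-base word of the form CANNTG, and many of them set the fate of a cell type. In C. elegans the family includes HLH-1, the MyoD homolog of body wall muscle, HLH-8, the Twist homolog of the M mesoblast lineage, and HLH-2, the E protein that partners many tissue-specific members. Others act in neurons or glia, such as the achaete-scute type HLH-3, HLH-4, HLH-6 and HLH-14 (HLH-6 in pharyngeal glands) and the Olig type HLH-16, HLH-17, HLH-31 and HLH-32. HLH-25 to HLH-29 belong to the REF-1 family, whose members carry a pair of bHLH domains and include targets of Notch signalling. HLH-30 is the worm homolog of TFEB, which drives lysosome and autophagy genes when food is short, and HLH-11 is the homolog of AP-4.

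Most of the SNU-23 peaks at hlh genes were at hlh-30 and hlh-11. The share of hlh genes with a peak was below that of all coding genes by either rule used here, and the difference was not tested. In the authors' final list of 6675 peaks, 3 of 25 hlh genes (12.0%, exact 95% binomial interval 2.55 to 31.2%) had a summit within 500 bp of the annotated 5' end, namely hlh-11, hlh-1 and hlh-30. Among all coding genes the share was 16.8%, which lies inside that interval. Counting the gene body and up to 2 kb upstream as well, 5 of 25 had a final peak (20.0%, interval 6.83 to 40.7%), against 29.5% of all coding genes, again inside the interval. This rule added hlh-33 and hlh-13. These 5 genes held 17 final peaks, of which 11 were at hlh-30 and 3 at hlh-11. The intervals cover counting error across genes and say nothing about worm cultures. They treat the genes as independent, although by the wider rule the regions of some neighbouring hlh genes overlap. With 25 genes the intervals are wide, so they cannot show that the shares are alike.

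The sequences around the summits are shown because they locate the sites that the description turns on. Each spans 50 bp to either side of the summit of a final peak (101 bases, RefSeq copy of WBcel235, ce11 coordinates), on the strand of the gene and from 5' to 3', with E-boxes in capitals. The first is the strongest site at the genes named hlh, at -331 bp from the 5' end of hlh-11 (negative values are upstream). It is followed by a site in the first intron of hlh-11, 708 bp downstream of the 5' end.
hlh-11 promoter, chrIII:9619330-9619430, plus strand: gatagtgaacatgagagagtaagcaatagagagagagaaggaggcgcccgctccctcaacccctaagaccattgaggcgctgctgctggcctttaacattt
hlh-11 first intron, chrIII:9620369-9620469, plus strand: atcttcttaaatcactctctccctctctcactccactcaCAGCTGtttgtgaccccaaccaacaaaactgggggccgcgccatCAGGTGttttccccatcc
The next lie at the 5' end of hlh-1 and upstream of hlh-33 and hlh-13.
hlh-1 promoter, chrII:4518457-4518557, plus strand: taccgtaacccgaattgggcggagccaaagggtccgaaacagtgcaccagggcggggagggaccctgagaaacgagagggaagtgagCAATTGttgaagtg
hlh-33 upstream, chrIII:1854136-1854236, plus strand: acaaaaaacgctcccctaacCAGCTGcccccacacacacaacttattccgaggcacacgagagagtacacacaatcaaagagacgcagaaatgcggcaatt
hlh-13 upstream, chrX:4248684-4248784, plus strand: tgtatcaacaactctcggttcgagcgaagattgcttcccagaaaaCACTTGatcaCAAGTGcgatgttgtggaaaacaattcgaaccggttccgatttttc
The last are from hlh-30, at its first promoter and at its strongest and second strongest sites in the pooled list, both inside introns.
hlh-30 promoter, chrIV:4035041-4035141, minus strand: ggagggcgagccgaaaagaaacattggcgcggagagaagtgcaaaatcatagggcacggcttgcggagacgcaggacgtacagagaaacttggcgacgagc
hlh-30 intron, strongest, chrIV:4028285-4028385, minus strand: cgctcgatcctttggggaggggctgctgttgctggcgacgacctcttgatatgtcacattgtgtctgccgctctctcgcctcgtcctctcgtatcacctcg
hlh-30 intron, next strongest, chrIV:4019978-4020078, minus strand: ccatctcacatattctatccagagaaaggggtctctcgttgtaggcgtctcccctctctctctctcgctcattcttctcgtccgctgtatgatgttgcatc

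E-boxes were found at some of these summits. Of the 17 final summits at hlh genes, 9 had CANNTG within 50 bp (52.9%, exact 95% interval 27.8 to 77.0%), against 43.3% of all 6675 final peaks. Without the 11 peaks of hlh-30 it was 5 of 6 (83.3%). The interval treats the summits as independent, although 11 are from 1 gene and the peaks at 6412 and 6616 bp of it overlap. In wider windows the shares at hlh genes and over all final peaks lay closer. They were 64.7% and 62.5% within 100 bp, and 76.5% and 73.7% within 150 bp. Among pooled candidates the order was reversed within 50 bp, with 32.8% of 58 summits at hlh genes against 38.8% of 30000. None of these differences was tested. CANNTG is its own reverse complement as a pattern, so a search of either strand covers both. The word CACGTG, the form bound by TFEB-type and Myc-type proteins, was within 50 bp at 0 of 17, against 6.35% of all final peaks. An approximate upper 95% limit for 0 of 17, taken as 3 divided by 17, is 17.6%. This limit also treats the summits as independent. Within 100 bp the word was at 1 of 17 (5.88%), against 9.75%. CAGCTG occurred 3 times, at hlh-11 (708 bp), hlh-33 and hlh-30 (8817 bp). At hlh-13 the summit was the last base of CACTTG, and CAAGTG, the same word read on the other strand, started 5 bp after it. The promoter summit of hlh-11 and the 3 hlh-30 summits printed above had no E-box in the window. A match describes letters in the window and not binding by a bHLH protein. The median GC content of the 17 windows was 50.5% (38.6 to 59.4%), against 45.5% over all final peaks.

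**Figure D1:**
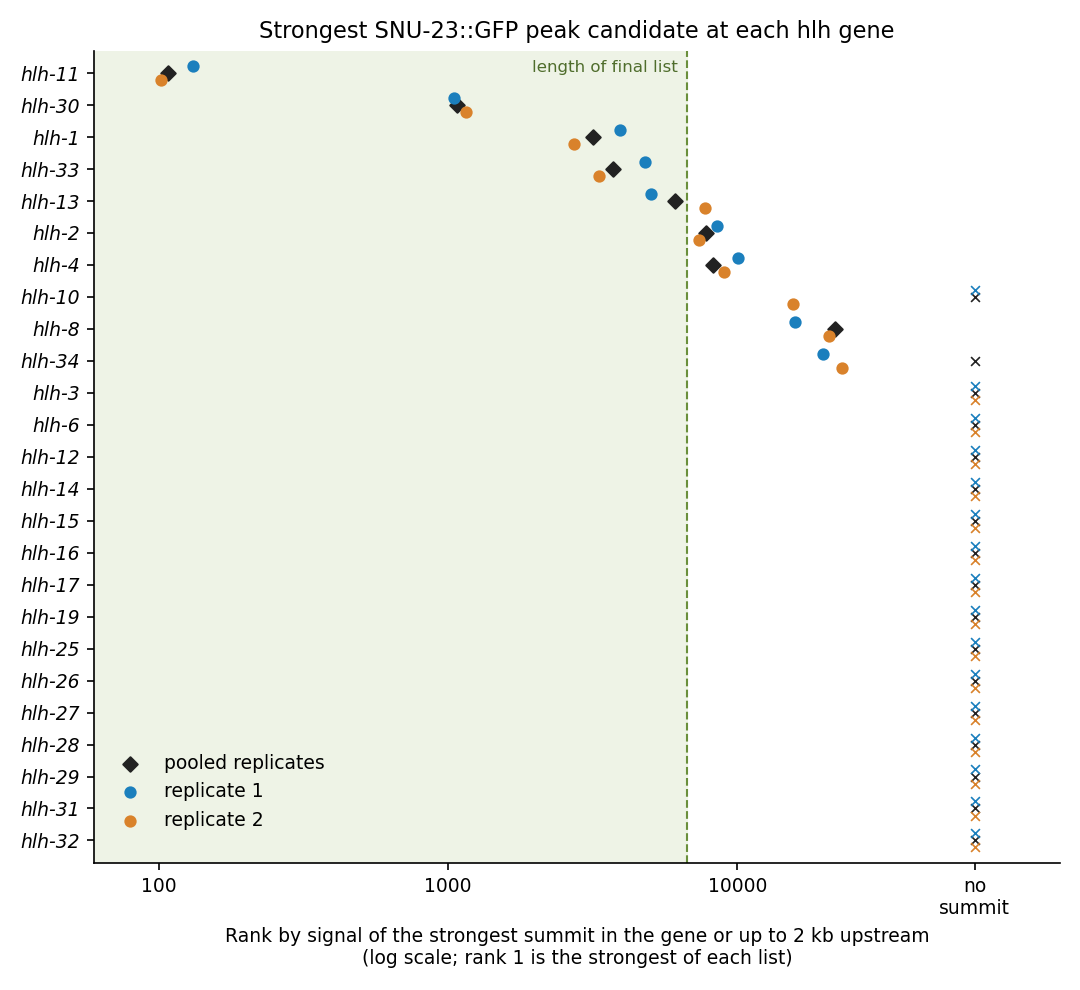
For each of the 25 hlh genes, the rank by signal (log scale) of the strongest summit in the gene or up to 2 kb upstream, in the pooled candidates and in each replicate; crosses mark lists with no summit. The shaded side of the dashed line holds the ranks up to 6675, the length of the final list: hlh-11 stands apart near rank 100, 4 further genes reach the final list and 15 genes have no summit in any list.

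Among the genes named hlh, hlh-11 held the strongest peak by a wide margin. The gene lies on chromosome III (9619711 to 9626529, plus strand), and its promoter summit, at position 9619380, was at -331 bp from the 5' end. The authors' signal per peak, whose scale differs between lists, was 975 in the pooled list (rank 108 of 30000 candidates), 426 in replicate 1 (rank 131) and 537 in replicate 2 (rank 102). By rank this was a high peak in all 3 lists. The median signal of the final list, on the pooled scale, was 158, and the replicate summits were 27 bp apart.

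A pair of further final peaks lay in the first intron of hlh-11. The summit at 708 bp had a signal of 234 in the pooled list, 104 in replicate 1 and 132 in replicate 2. The summit at 2314 bp had 159, 84.4 and 84.2, and it lay 122 bp upstream of another annotated hlh-11 transcript start. The 5' end of the non-coding RNA gene F58A4.16 was 385 bp from that summit. All 3 sites were among the strongest 6675 peaks of each replicate alone. At least 3 final peaks by the same rule were found at 371 coding genes (1.86%).

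hlh-30 carried 11 final peaks between -140 and 14923 bp, the most of any coding gene together with mnk-1, a MAP kinase interacting kinase gene, which also had 11. The gene spans 20159 bp on chromosome IV (4014793 to 4034951, minus strand), and the annotation gives 13 transcripts with 10 distinct start positions. Of the 11 summits 10 were in introns and 1 was upstream of the 5' end; none lay downstream of 14923 bp, where exons 4 to 12 of the merged annotation are. There were 288 coding genes of 15000 to 25000 bp, and their median was 1 final peak. hlh-30 was looked up in this way after its peaks had been counted. Each replicate alone also gave 11 summits at hlh-30 among its strongest 6675, but not at the same sites throughout. Replicate 1 lacked the site at 7632 bp and had 1 at 20081 bp (signal 38.0, rank 6224), and replicate 2 lacked the site at 6412 bp and had 1 at 15805 bp (signal 45.0, rank 6071).

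**Figure D2:**
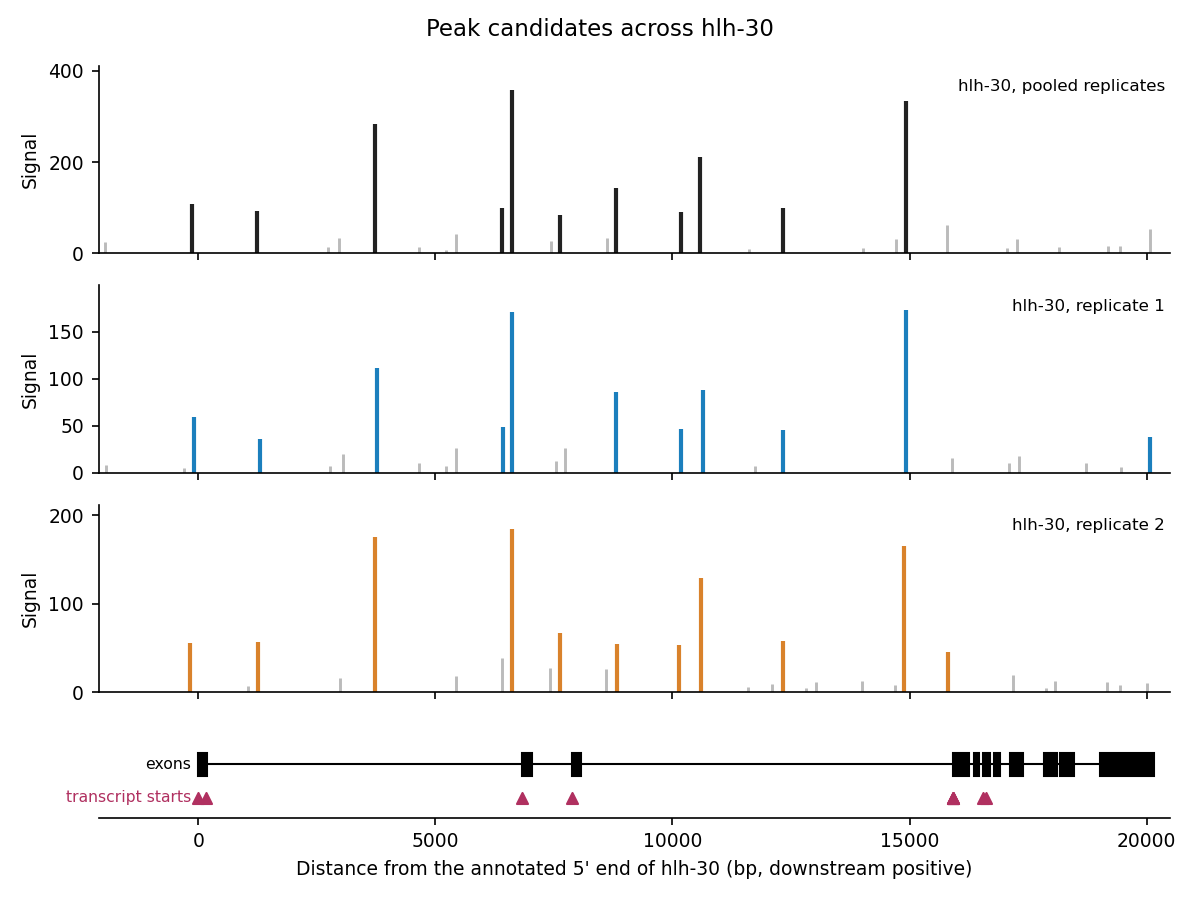
Signal of every peak candidate (vertical lines) against distance from the annotated 5' end of hlh-30, for the pooled list and each replicate, above the merged exons (black boxes) and transcript starts (triangles). Coloured or black lines rank within the strongest 6675 of their list and grey lines below; the tallest lines, near 3734, 6616 and 14923 bp, recur in both replicates, and few high lines stand over the cluster of exons at the right.

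The strongest hlh-30 summit in the pooled list was not at the first promoter. It lay 6616 bp into the gene, with a signal of 357 in the pooled list (rank 1075), 171 in replicate 1 and 184 in replicate 2, and 208 bp upstream of an internal transcript start. The order differed between replicates: in replicate 1 the site at 14923 bp was higher (173), and in replicate 2 the site at 3734 bp came next (175). A weaker summit beside it, at 6412 bp, had 98.4, 48.6 and 38.8, and missed the strongest 6675 of replicate 2 with rank 6839.

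The longest intron, of 7833 bp between merged exons, held 5 of the 11 sites. The highest of these, at 14923 bp, was the next strongest of the gene in the pooled list. Here the signal was 334 in the pooled list, 173 in replicate 1 and 165 in replicate 2, at a point 984 bp upstream of the nearest hlh-30 transcript start and 38 bp downstream of the 5' end of the non-coding RNA gene W02C12.4. The nearest 5' end of a coding gene was that of W02C12.2, at -12055 bp. The signal at 10586 bp, in the same intron, was 210, 88.2 and 129. At 3734 bp, in the first intron of 6630 bp with the strongest site, it was 284, 111 and 175, at -3090 bp from the nearest hlh-30 start.

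The promoter summit of hlh-30, at -140 bp, had the median signal of the 11 peaks, with 108 in the pooled list (rank 4776), 59.4 in replicate 1 and 55.4 in replicate 2. The remaining 5 sites had pooled signals of 84.8 to 143. The site at 7632 bp, 256 bp upstream of another internal start, differed most between replicates, with 26.0 in replicate 1 (rank 8321) and 66.6 in replicate 2. In all, 4 of the 11 summits were within 500 bp of an annotated hlh-30 transcript start, each on its upstream side.

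hlh-1, the muscle regulator, had 1 final peak at its 5' end. The gene is on chromosome II (4518574 to 4522528, plus strand) and the summit was at -67 bp. The signal was 166 in the pooled list (rank 3158), 63.6 in replicate 1 (rank 3930) and 102 in replicate 2 (rank 2722), near the median of the final list. A weaker candidate at 1592 bp in an intron had 55.0, 18.6 and 35.4, below the final list. HLH-8, the other mesodermal factor of the family, had no final peak at its gene. The best pooled candidate of hlh-8 (chromosome X, 8116457 to 8120351) had a signal of 11.8 at rank 21721, below the median of 21.0 over all pooled candidates. Its summit was closer to the 5' end of the non-coding RNA gene C02B8.11 than to that of hlh-8.

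**Figure D3:**
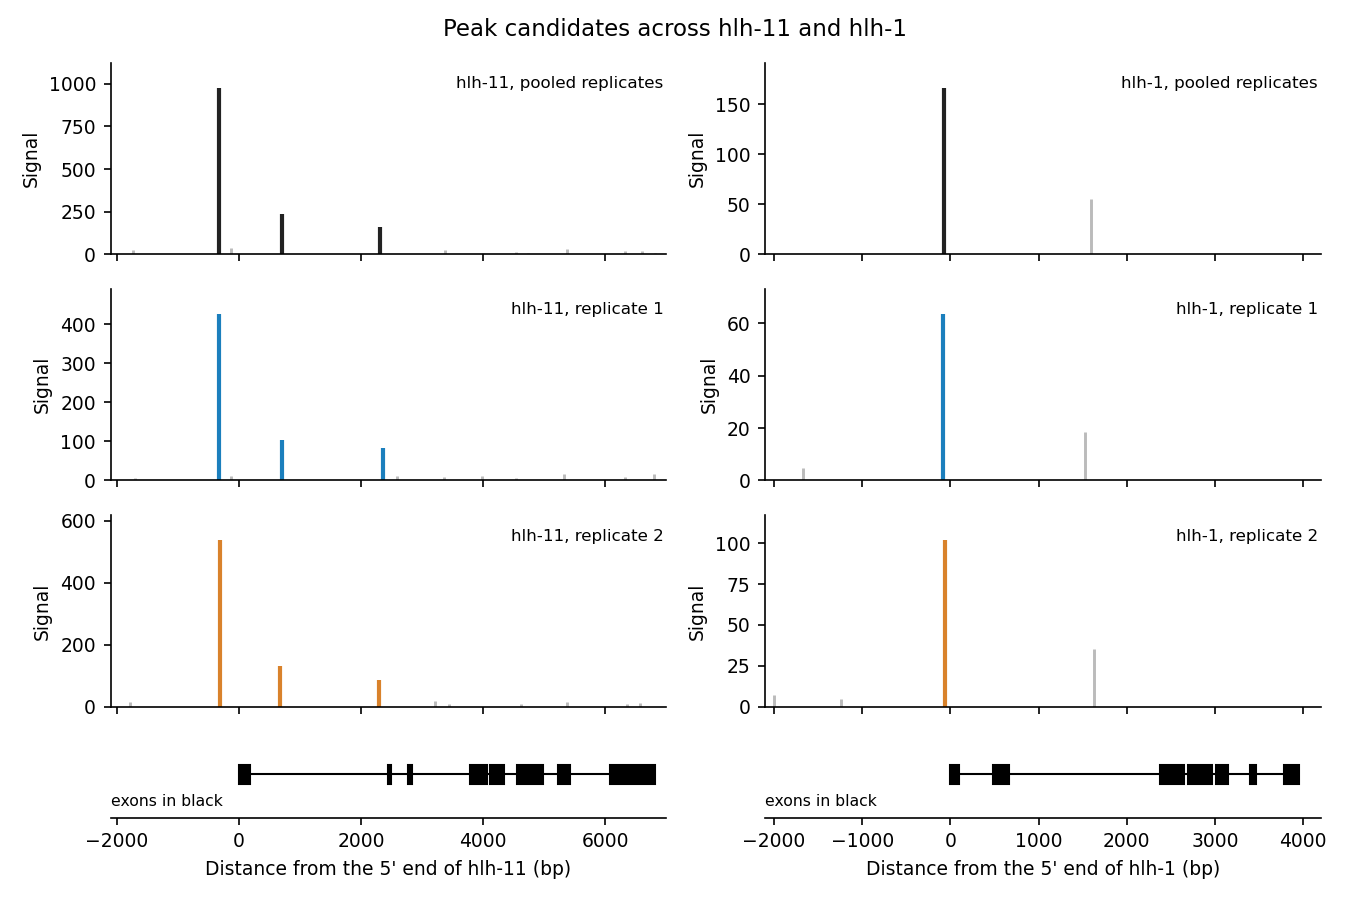
Signal of every peak candidate (vertical lines) against distance from the 5' end of hlh-11 (left) and hlh-1 (right), for the pooled list and each replicate, above the merged exons. Black or coloured lines rank within the strongest 6675 of their list and grey lines below: hlh-11 has 3 such lines in every list, with the tallest at -331 bp in the pooled list, and hlh-1 has 1.

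hlh-33 and hlh-13 had final peaks that lay upstream of the 500 bp window. At hlh-33 (chromosome III, 1855392 to 1859602) the summit was at -1206 bp with a signal of 143 in the pooled list, 52.0 in replicate 1 and 85.9 in replicate 2. At hlh-13 (chromosome X, 4249249 to 4250766), a homolog of the vertebrate Ptf1a gene, the summit was at -515 bp, just outside the window. Its signal was 81.1 in the pooled list (rank 6090), 49.1 in replicate 1 (rank 5024) and 32.5 in replicate 2 (rank 7754). Without replicate 1, hlh-13 was therefore not among the strongest 6675, and the count of genes by the wider rule was 4 in place of 5. No other coding gene had its 5' end nearer to either summit. A weaker hlh-13 candidate at -1908 bp (33.9, rank 10948) was closer to the 5' end of F48D6.4.

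At these sites the signal ratio of the replicates had a wider spread than over the whole list, on few peaks, and the difference was not tested. Of the 17 final peaks at hlh genes, 14 had a summit within 150 bp among the strongest 6675 of both replicates and 3 in 1 of them. The log2 ratio of replicate 2 to replicate 1 had a median of 0.33 and a standard deviation of 0.51 over the 17 peaks. Over the 6600 final peaks matched in each replicate these were 0.20 and 0.39. The largest ratio of the 17, 1.36, was at the hlh-30 site at 7632 bp. The replicate summits of the 17 sites were a median of 29 bp apart and at most 113 bp.

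**Figure D4:**
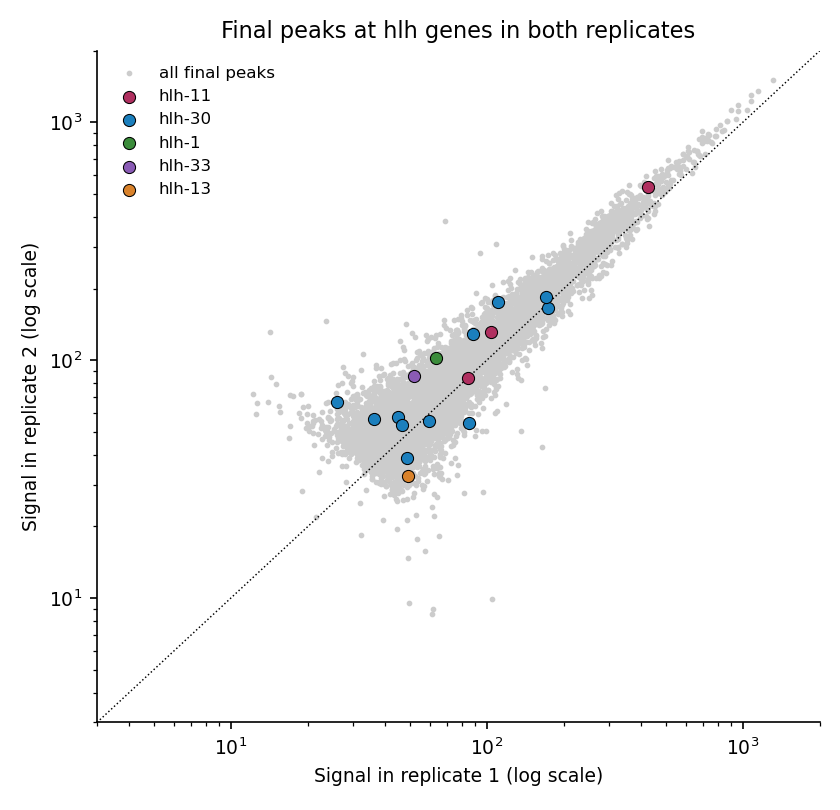
Signal in replicate 2 against replicate 1 (both log scales) for the final peaks with a summit in both (grey) and for the 17 final peaks at hlh genes (coloured by gene); the dotted line marks equal signal. The hlh-11 promoter lies at the high end and most sites of hlh-30 in the lower range, with 11 of the 17 (64.7%) above the dotted line, against 74.5% of the grey points.

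Within the gene and 2 kb upstream, hlh-2 and hlh-4 stood just below the final list. For hlh-2 (chromosome I, 7190788 to 7193920) the strongest pooled candidate was at -1034 bp with a signal of 57.3 at rank 7785. It had 22.5 in replicate 1 and 34.9 in replicate 2. The lowest signal in the final list was 71.7. A final peak did lie further upstream of hlh-2, beyond 2 kb and before the next coding gene. For hlh-4, which acts in the ADL sensory neurons, the strongest candidate was at -1763 bp with 52.1 at rank 8267, and with 19.9 in replicate 1 and 26.2 in replicate 2. A candidate closer to its 5' end, at 27 bp, had 14.6 and rank 18979; in replicate 1 it was 8.57 at -10 bp, and replicate 2 had none there.

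Weak candidates at hlh-10 and hlh-34 were in replicate lists and not in the pooled list. At hlh-10 they were in replicate 2 alone, with signals of 12.2 and 11.9. At hlh-34, a bHLH-PAS gene, a candidate at 288 bp in replicate 1 had 7.94 and a candidate at 1379 bp in replicate 2 had 6.83, so the replicates did not share a site. All 4 of these were below the medians of their lists, 11.5 in replicate 1 and 12.8 in replicate 2.

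Over all 30000 pooled candidates, which include background peaks, 5 of 25 hlh genes had a summit within 500 bp of the 5' end (20.0%, exact 95% interval 6.83 to 40.7%) against 33.0% of all coding genes. By the wider rule it was 8 of 25 (32.0%, interval 14.9 to 53.5%) against 48.0%. The candidates of replicate 1 and of replicate 2 gave 9 and 10 genes by the wider rule, against 51.1% and 50.9% of all coding genes. With the strongest 6675 peaks of each replicate, hlh-1, hlh-11 and hlh-30 were marked at the 5' end in both, against 17.1% and 17.0% of coding genes. By the wider rule these lists held 5 and 4 hlh genes, against 29.8% and 29.7%. None of these differences from the coding genes was tested.

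No summit in any of the 4 lists was found at 15 of 25 hlh genes (60%), against 44.6% of all coding genes; the difference was not tested. They include all 4 Olig type genes, all 5 REF-1 family genes and 3 of 4 achaete-scute type genes (hlh-3, hlh-6 and hlh-14). The others were hlh-12, which acts in the migrating cells of the gonad, hlh-15 and hlh-19. Some of the regions searched overlap, namely those of hlh-28 and hlh-29, of hlh-25 and hlh-26, and of hlh-17 and hlh-31. The genes of such a pair are not independent in the count. These 15 genes had a median length of 1167 bp (425 to 1905 bp), against 4211 bp (1518 to 20159 bp) for the 5 with a final peak and 2027 bp for all coding genes. A longer gene offers more positions to the wider rule, and the part of length in the count was not tested.

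For the REF-1 family a missing peak is uncertain, because their loci are partly duplicated. In hlh-28 and hlh-29 (chromosome X), 89.7% of the 36-base words of each gene also occurred in the other. For hlh-25 and hlh-27 (chromosome II) these shares were 70.8% and 72.6%. Over the gene and 2 kb upstream, 36.5 to 78.6% of 36-base words of the 5 REF-1 family loci were single-copy in the genome. For the other 10 genes without a summit the range was 89.3 to 100%, and 7 of them were at 98% or more. The sources used here give neither the read length nor the treatment of reads that map to several places.

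Measured per length of sequence, the family reached 14.5 final peaks per 100 kb of gene and 2 kb upstream region, against 7.52 for all coding genes. This excess rested on hlh-30: the other 24 genes had 6.32 per 100 kb. Of the 17 gene and summit pairs, 12 were intronic away from the 5' end (70.6%), against 19.4% of such pairs over all coding genes. Without hlh-30 it was 2 of 6, both in the first intron of hlh-11. The intronic class takes only the outermost 5' end of a gene, so it includes sites close to internal transcript starts. At hlh-30 the sites at 6412, 6616 and 7632 bp were at -412, -208 and -256 bp from such a start. The hlh-11 site at 2314 bp was at -122 bp. No final summit lay in an exon of an hlh gene outside the 500 bp window.

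The summits at hlh 5' ends were on the upstream side, like those of coding genes in general. The 3 offsets in the final list were -331, -140 and -67 bp, with a median of -140 bp, against -168 bp over 3460 gene and summit pairs at coding 5' ends, of which 89.7% were upstream. In replicate 1 the 3 offsets ran from -331 to -83 bp and in replicate 2 from -304 to -66 bp. Among final summits within 500 bp of the start codon the median was -390 bp. That set is not the same: it has summits of hlh-11 and hlh-30 and none of hlh-1.

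Of 16 bHLH genes that carry other names, 4 had a final summit within 500 bp of the 5' end (25.0%, exact 95% interval 7.27 to 52.4%), against the 16.8% of coding genes. These were mdl-1, mml-1 and mxl-3, of the Mad, Mondo and Max-like group, and aha-1, the ARNT homolog that partners PAS proteins. At mdl-1 the promoter summit had a signal of 289 in the pooled list, 160 in replicate 1 and 140 in replicate 2. Stronger mdl-1 summits lay at 710 bp (441, 190 and 251) and at -1200 bp (373, 181 and 197). The summit at -1200 bp was nearer to the 5' end of the non-coding RNA gene R03E9.9. At mxl-3 the values of the promoter summit were 270, 145 and 132. That summit was at -52 bp from the 5' end of the non-coding RNA gene C49F8.5, and at -254 bp from that of mxl-3. At aha-1 the summit (275, 133 and 143) was nearer to the 5' end of C25A1.15. At mml-1 the summit at -317 bp had 97.1, 64.5 and 47.4, and a stronger mml-1 summit at -1864 bp had 693, 298 and 393. By the wider rule hif-1 and mxl-2 were added, giving 6 of 16 (37.5%, interval 15.2 to 64.6%) against 29.5% of coding genes. The hif-1 summit at -1981 bp had 1633 in the pooled list (rank 18), 731 in replicate 1 and 897 in replicate 2. It was higher than the hlh-11 promoter summit in each of these lists. The mxl-2 summit was nearer to the 5' end of ubc-20. The genes ahr-1, cky-1, cnd-1, hnd-1, lin-22, lin-32, mxl-1, ngn-1, ref-1 and sbp-1 had no final peak. Among other factor families, the final list marked 4 of 63 ceh homeobox genes (6.35%) and 54 of 269 nuclear hormone receptor genes (20.1%) at the 5' end. The differences between these families were not tested.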

How the data were processed

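Whole L1 larvae with tagged SNU-23 were profiled by ChIP-seq in 2 biological replicates of 1 group. The deposited files are peak lists; the submitters' file descriptions, deposited with the lists, derive the candidates from each replicate's alignment, or from both, with a control; the final list was thresholded by the irreproducible discovery rate (IDR). The aligner and peak caller, with versions: not given in the sources used here. The signal is the authors' value per peak, used here to describe and rank peaks within a list. The deposited −log10 q-value is at its ceiling in the whole final list and was not used for ranking. Summit offsets (a position in bases, other unit) were taken as deposited. The final list equalled the strongest 6675 of 30000 pooled candidates.

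Only ce11 lists were used, with Ensembl release 115 and the RefSeq genome of WBcel235, which shares the 6 chromosome names, and no peak passed a chromosome's end. Positions are 1-based. A gene was marked when a summit lay within 500 bp of its 5' end; the wider rule took the gene and 2 kb upstream. Replicate error is shown by the strongest 6675 peaks of each replicate. A replicate summit was matched as the strongest within 150 bp of the final summit. No test was run, since the design has 1 group and the members were chosen with earlier results of these data known, as were the lists and the named genes (hlh genes with final peaks, then those with candidates, hlh-1, hlh-2, hlh-8, hlh-30 and marked bHLH genes). The assignment was tested on simulated data. Python 3.11.15, numpy 2.4.6, pandas 2.3.3 and scipy 1.17.1 were used. Columns with sample values that went unused: 0.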

Additional observations from a re-analysis of the deposited data

How the results depend on the processing

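Of 47 alternative values computed for the counts, the summit distance and the E-box share, 43 stayed close to the reported ones: counts within 1.5 times, the distance within the spread of the replicates, the share within its interval. These limits are loose. A count of 3 passes at 2 or 4 whichever genes change, the interval of the share is wide, and the replicate distances are judged by their own spread. The tally is therefore no measure of stability. The count of 3 hlh genes marked at the 5' end was 3 with either replicate alone and 2 to 4 in the other settings. It was 2 in the stronger 3337 final peaks, which drop hlh-30, 2 with a 250 bp window, which drops hlh-11, and 2 from the start codon, which drops hlh-1. It was 4 with a 1000 bp window or by overlap of the peak interval, which add hlh-13. The count of 5 by the wider rule was 3 in the stronger 3337 peaks and 4 to 5 with a single replicate. It was 7 in the strongest 13350 pooled candidates, which add hlh-2 and hlh-4. With 1000 bp upstream it was 4, which drops hlh-33. With the region run upstream to the next coding gene it was 6, which adds hlh-2 from the final list itself. With a candidate at the 5' end there were 5 genes in each list, but beside hlh-1, hlh-11 and hlh-30 these were hlh-4 and hlh-13 in the pooled list, hlh-4 and hlh-34 in replicate 1, and hlh-10 and hlh-13 in replicate 2. The count of 4 other bHLH genes was 1 within 250 bp (mdl-1). The median distance was -390 bp from the start codon, over summits of hlh-11 and hlh-30 only, and -165 to -100 bp with a single replicate. The E-box share of 52.9% was 83.3% without the peaks of hlh-30, on 6 peaks, an alternative added after seeing the data. The cause of these shifts was not tested, beyond the windows and thresholds that define them. No paired analysis was possible because the series has 1 group. Read depth is unknown, so a missing peak cannot be read as absence of SNU-23.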

Other observations

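A short repeat, GAGAGA on either strand, was searched within 50 bp of the final summits after the sequences at hlh-11 and hlh-30 had been read. It was present at 8 of 17 hlh summits (47.1%), among them the hlh-11 promoter, the hlh-30 promoter and the hlh-30 intron sites at 6616 and 14923 bp, and at 29.9% of all final peaks. Without hlh-30 it was at 3 of 6. The word was chosen on these summits, so the difference was not tested.

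The gene mnk-1 on chromosome II (10542421 to 10555044) held as many final peaks as hlh-30, 11 by the same rule. Of these 9 were in the gene, of 12624 bp, and 2 upstream, with summits from -968 to 8877 bp.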
